A study of Arabidopsis thaliana with 6 samples.

Results

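The histone genes of Arabidopsis thaliana were followed in RNA-seq of inflorescences in which a steroid-inducible form of the transcription factor ARF3 was either switched on or left off. Genes were taken by identifier: 39 genes for the histones H4, H3.1, H3.3, H2A and its variants, H2B and H1 were looked up among the 17675 genes of the deposited table, and all 39 were listed. All 39 were detected in every library, the lowest value being 2.42 reads per 1000000 reads (RPM). All plants had the genotype ARF3:ARF3-GR arf3-29, so both groups held the fusion and the mutation. The name denotes the ARF3 promoter driving ARF3 joined to the hormone-binding part of the glucocorticoid receptor (GR), which holds its partner inactive in the absence of steroid, here dexamethasone (DEX). Inflorescences came from 3 week old plants grown at 23 °C in days of 16 h light and 8 h dark. They were treated with 10 µM DEX dissolved in DMSO (3 libraries, DEX) or with DMSO (3 libraries). Silwet L-77, a wetting agent, is given at 0.015% for both groups. Flowers of stage 7 or older were cut away, leaving stage 6 and younger. DEX-treated plants without the fusion were not analysed here, so an effect of the steroid and an effect of active ARF3-GR cannot be told apart, and the length of treatment is not given in the sources used here.

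Histones are the proteins around which DNA is wrapped. H2A, H2B, H3 and H4 form the core of the nucleosome, and H1 sits on the linker DNA between cores. Canonical H2A, H2B, H3.1 and H4 are made mainly during S phase, when new DNA has to be packaged, and are called replication-coupled. H3.3 and H2A.Z are replacement histones, made through the cell cycle and put into chromatin outside replication, H3.3 in transcribed genes and H2A.Z mostly around gene starts. Plants also have H2A.X, whose tail is phosphorylated at DNA breaks, and H2A.W, which marks heterochromatin.

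H3.1 and H3.3 share nearly their whole protein, so the coding bases that tell them apart are shown first. The 5 H3.1 genes encode 1 protein and the 3 H3.3 genes another, both of 135 residues counted without the initiator methionine. From the H3.1 gene AT1G09200 to the H3.3 gene AT4G40040, the members of highest mean level of each class, the substitutions were A31T, F41Y, S87H and A90L. All 8 H3 genes carried the residues of their class at these 4 positions. In the lines that follow, read from the coding sequence of the TAIR10.1 assembly in RefSeq, capitals mark the codons that differ in residue between the classes. The first 3 lines cover residues 28 to 44, with a second H3.1 gene, AT5G10390, added because it had the largest fall among the histones, and the last 2 lines cover residues 82 to 93.
AT1G09200 (H3.1), residues 28 to 44: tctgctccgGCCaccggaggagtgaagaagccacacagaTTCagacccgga
AT5G10390 (H3.1), residues 28 to 44: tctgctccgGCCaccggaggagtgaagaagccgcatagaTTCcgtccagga
AT4G40040 (H3.3), residues 28 to 44: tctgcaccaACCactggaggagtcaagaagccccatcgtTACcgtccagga
AT1G09200 (H3.1), residues 82 to 93: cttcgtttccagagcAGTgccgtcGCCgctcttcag
AT4G40040 (H3.3), residues 82 to 93: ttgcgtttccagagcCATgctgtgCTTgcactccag
Within a class the coding bases still varied: whole coding sequences were 80.3 to 89.5% identical between pairs of H3.1 genes and 78.6 to 89.3% identical between pairs of H3.3 genes. The 8 H4 genes encode 1 protein of 102 residues from coding sequences that were 78.8 to 98.1% identical.

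Promoters are shown for the histone genes on which the results turn. Each is the 250 bases before the annotated transcript start, written 5′ to 3′ in the direction of transcription, with coordinates of TAIR10.1. The build behind the deposited table is not given in the sources used here, and genes were matched to this assembly by identifier. Capitals mark the plant histone octamer (CGCGGATC) and the core of the mitosis-specific activator element (AACGG), searched on both strands. AT5G10390 had the largest fall, HIS1-3 (AT2G18050, a linker histone H1 known in Arabidopsis as drought-inducible) had the largest rise, and AT1G09200 had the highest mean level of the H3.1 genes.
AT1G09200 (H3.1), chr1:2972335-2972584, minus strand: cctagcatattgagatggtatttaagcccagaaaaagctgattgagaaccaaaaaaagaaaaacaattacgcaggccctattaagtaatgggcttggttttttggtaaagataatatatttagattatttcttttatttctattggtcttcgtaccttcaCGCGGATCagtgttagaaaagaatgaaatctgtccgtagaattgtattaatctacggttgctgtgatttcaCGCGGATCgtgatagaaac
AT5G10390 (H3.1), chr5:3269595-3269844, minus strand: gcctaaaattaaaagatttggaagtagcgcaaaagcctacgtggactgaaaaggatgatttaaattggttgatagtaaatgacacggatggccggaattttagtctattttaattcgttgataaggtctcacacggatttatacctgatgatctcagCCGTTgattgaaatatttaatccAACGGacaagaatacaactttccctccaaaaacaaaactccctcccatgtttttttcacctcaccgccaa
HIS1-3 (H1), chr2:7845673-7845922, plus strand: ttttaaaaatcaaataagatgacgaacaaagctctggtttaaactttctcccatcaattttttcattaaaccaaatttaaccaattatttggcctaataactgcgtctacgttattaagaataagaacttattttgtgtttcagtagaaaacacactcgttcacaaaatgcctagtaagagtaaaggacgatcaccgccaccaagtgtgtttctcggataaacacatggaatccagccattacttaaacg
The octamer occurred 2 times in the AT1G09200 promoter, starting 90 and 19 bases before the transcript start, and the AACGG core 2 times in that of AT5G10390, 93 and 70 bases before the start. Neither was in the HIS1-3 window.

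The libraries held 10703769 to 14469527 reads over the listed genes, so 1 read was worth 0.0691 to 0.0934 RPM. The treatments differed widely: of all genes tested, 57.7% passed the test between DEX and DMSO, 28.1% lower and 29.6% higher with DEX, and the DEX and DMSO values did not overlap for 62.9%. The third DEX library (DEX-3) stood apart, since it differed from the other DEX libraries by a chi-square per degree of freedom of 10.45 and 11.99, against 2.80 to 4.31 for the other pairs within a group. Summed markers of young flowers, LFY, AP1, STM, PI and AP3, came to 819 to 885 RPM in DMSO and 819 to 910 RPM in DEX, all 5 being present, as the labelled tissue would have them. Within this sum PI rose by 0.63 on the log2 scale, STM fell by 0.39 and AP3 fell by 0.23 (limma adjusted p = 1.30e-07, 0.00285 and 0.0209), and LFY and AP1 did not pass. The call of AP3 was lost without DMSO-2 (limma adjusted p = 0.0886), without DMSO-3 (0.0678) and without the intensity trend (0.118). Of 4 tapetum and pollen markers 2 (AT5G07230 and A7) were in the table and VGD1 and PPME1 were not analysed here, the pair summing to 3.70 to 5.20 RPM in DMSO and 11.3 to 15.2 RPM in DEX, and 4 leaf markers summed to 5962 to 6169 RPM in DMSO and 6791 to 7224 RPM in DEX. A7, at 0.0804 to 0.806 RPM in DMSO, is in the table only through its DEX values of 3.32 to 5.11 RPM, so part of the tapetum difference is fixed by the minimum for listing, while AT5G07230 went from 4.07 ± 0.403 to 9.36 ± 1.17 RPM. The largest part of the leaf sum was RBCS1A, which rose from 4474 ± 174 to 5271 ± 402 RPM (0.23). Of the 4 leaf markers 3 rose, the others being CAB2 (0.70) and RCA (0.25). CAB3 did not pass, its mean going from 764 ± 170 down to 705 ± 135 RPM with overlapping groups (-0.11). The tapetum and leaf sums were both higher in every DEX library, and their part in the histone results was not tested.

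With DEX the histone genes moved mostly down. Differences are given as the mean of log2(RPM + 1) in DEX minus that in DMSO, tested with limma at a Benjamini-Hochberg adjusted p under 0.05 over all 17675 genes. Of the 39 histone genes 27 fell (69.2%, against 28.1% of all genes), 9 rose (23.1%, against 29.6%) and 3 did not pass. A fall of at least 1 on the log2 scale was seen for 17 (43.6%), against 5.23% of all genes. The median difference was -0.85, against 0.0035 over all genes. The groups did not overlap for 37 of the 39 (94.9%), against 62.9% of all genes. In the whole inflorescence, fewer cells that make a histone and less of its RNA per cell cannot be told apart.

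**Figure D1:**
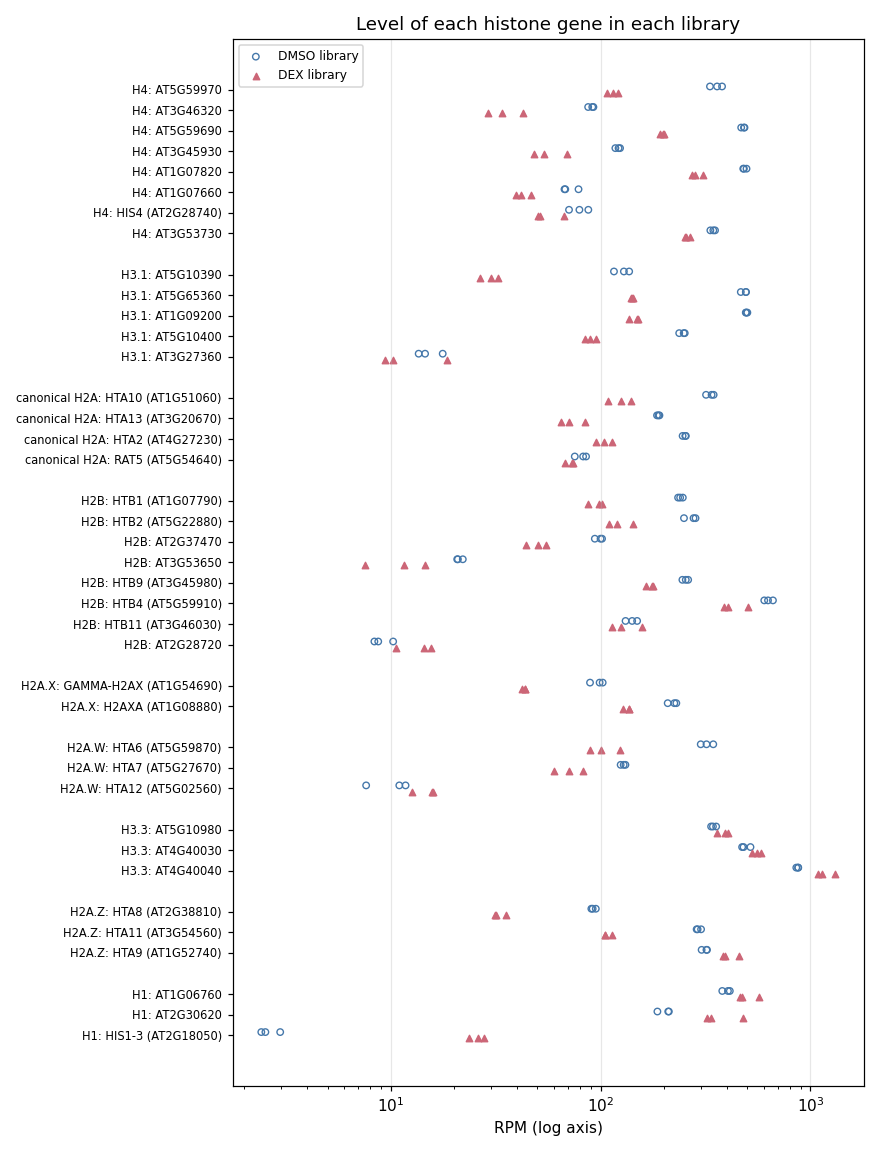
Level of each of the 39 histone genes in RPM, on a log axis, with 1 point per library for the 3 DMSO and 3 DEX libraries, genes grouped by class. The DEX points lie to the left of the DMSO points for most H4, H3.1, H2A and H2B genes and to the right for H3.3 and H1, with HIS1-3 moving furthest, from under 3 to over 23 RPM.

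Histones that go with replication fell and replacement histones split. Of 25 replication-coupled genes (H4, H3.1, canonical H2A and H2B) 21 fell, 1 rose and 3 did not pass, with a median of -1.09. Of 6 replacement genes (H3.3 and H2A.Z) 2 fell and 4 rose, with a median of 0.17. Of all genes 28.1% fell and 29.6% rose, so falls among the replacement genes were about as frequent as among all genes. The calls of the rises of AT4G40030 and AT5G10980 depended on the settings, as given below. All members together took 0.982, 0.9501 and 0.976% of the reads of the 3 DMSO libraries and 0.645, 0.662 and 0.735% of the reads of the 3 DEX libraries. The third DEX library was the highest of its group, and still lay below every DMSO library. The widest Wilson 95% interval of these shares, in the first DMSO library, ran from 0.977 to 0.988%, and such intervals cover counting error only.

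**Figure D2:**
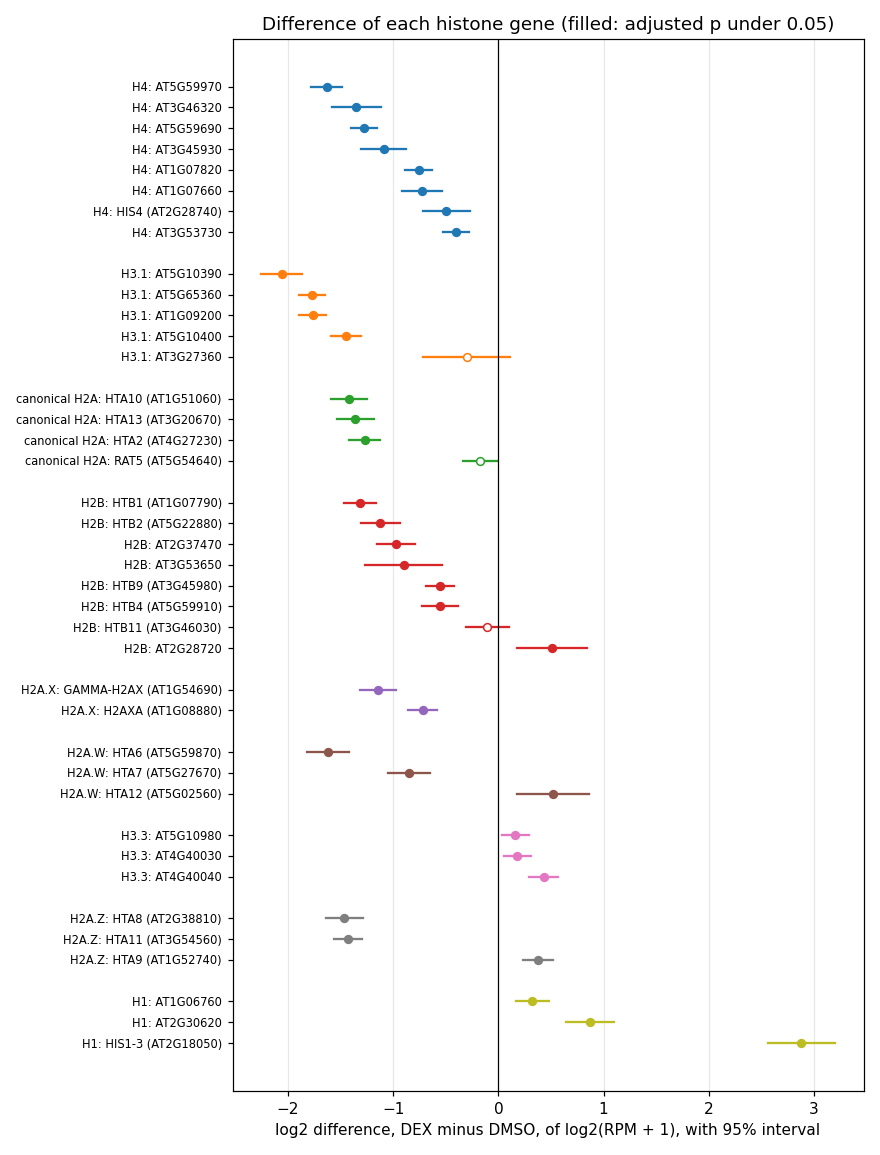
Difference of each histone gene (DEX minus DMSO, log2(RPM + 1)) with its 95% interval from limma, grouped by class, with a vertical line at 0 and filled points for adjusted p under 0.05. All 8 H4 genes lie below 0, all 3 H3.3 and all 3 H1 genes lie above 0, and H2A.Z, H2A.W and H2B have members on both sides.

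H4, the partner of H3 in the nucleosome core, fell as a whole. All 8 genes passed the test, with differences from -1.63 to -0.41 and a median of -0.93. Their summed level went from 2025 ± 40.7 to 1047 ± 56.6 RPM (SD, n = 3 in each group, as for every mean that follows). AT1G07820, the H4 gene of highest mean RPM, had 481.6, 495.7 and 478.3 RPM in the DMSO libraries and 271.4, 280.5 and 308.4 RPM in the DEX libraries. All its DEX values lay below all its DMSO values, and the difference was -0.76 (SE 0.0617, limma adjusted p = 1.28e-08). AT5G59970 had 358.9, 379.0 and 332.0 RPM with DMSO and 121.2, 106.7 and 114.7 RPM with DEX. That was the largest fall among the H4 genes, at -1.63 (SE 0.0699, limma adjusted p = 2.17e-12), and the groups stood far apart. AT3G53730 had the smallest, -0.41, from 343 ± 8.88 to 259 ± 8.38 RPM.

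The H4 genes did not keep their shares of the class. Per kilobase of annotated exon, AT5G59690 gave the largest part of H4 with DMSO, 27.2 ± 0.341%, and 22.3 ± 0.888% with DEX. AT1G07820 went from 21.0 ± 0.162 to 24.7 ± 0.625%, which made it the largest part with DEX, and AT3G53730 went from 12.8 ± 0.507 to 19.3 ± 0.599%. The values of these genes did not overlap between the groups. Because some H4 copies are nearly identical, reads may have been exchanged among them: of the 50-base stretches in their exons, 69.2% in AT1G07660, 72.1% in AT3G46320, 74.3% in AT3G45930 and 80.6% in AT1G07820 occurred nowhere else. AT3G53730 and HIS4 (AT2G28740) had only such unique stretches, and they showed the 2 smallest falls of the class, -0.41 and -0.49. Falls did not follow uniqueness among the rest. AT5G59970 (93.1% unique) and AT5G59690 (91.5%) had differences of -1.63 and -1.28. Those of AT3G46320, AT3G45930, AT1G07820 and AT1G07660 were -1.35, -1.09, -0.76 and -0.73. The part of shared reads in these differences was not tested.

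H3.1, the H3 that is put into newly replicated DNA, had the lowest median of the 9 classes, and 4 of its 5 genes fell. The summed level went from 1368 ± 27.2 to 418 ± 4.51 RPM and the median difference was -1.76. AT1G09200 had 494.8, 491.7 and 500.3 RPM with DMSO and 148.7, 150.7 and 136.4 RPM with DEX, a difference of -1.76 (SE 0.0611, limma adjusted p = 1.43e-13). AT5G65360 lay next to it in level, falling from 484 ± 15.5 to 141 ± 1.47 RPM, a difference of -1.77. These genes together gave most of H3.1 and moved as a pair, at 35.5 and 36.6% of the class per kilobase with DMSO and 34.2 and 35.04% with DEX. AT5G10390 had 115.8, 129.1 and 136.8 RPM with DMSO and 26.6, 30.1 and 32.5 RPM with DEX. Its difference, -2.06 (SE 0.0915, limma adjusted p = 3.63e-12), was the largest fall among the 39 genes, a 4.28-fold lower mean. AT5G10400, its direct neighbour on the chromosome with no gene between them, fell from 246 ± 7.87 to 89.3 ± 5.25 RPM (-1.45).

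The fifth H3.1 gene, AT3G27360, did not pass the test. It had 17.7, 14.6 and 13.6 RPM with DMSO and 9.34, 10.2 and 18.5 RPM with DEX, so the groups overlapped through the third DEX library (difference -0.30, 95% interval -0.71 to 0.11, limma adjusted p = 0.197). Without that library the difference was -0.59 (limma adjusted p = 0.00128). AT3G27360 overlaps SDH2-1 (AT3G27380), a gene for a subunit of succinate dehydrogenase on the same strand, and it is the weakest of the H3.1 genes.

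H3.3, the replacement H3, moved the other way. All 3 genes rose, and the summed level went from 1702 ± 35.7 to 2116 ± 78.9 RPM. AT4G40040 had 872.5, 855.9 and 874.5 RPM with DMSO and 1085, 1134 and 1306 RPM with DEX. The groups did not overlap, and the difference was 0.43 (SE 0.0654, limma adjusted p = 2.33e-05), the largest of the class. AT4G40030, directly beside it on the chromosome, rose from 490 ± 24.4 to 555 ± 25.3 RPM (0.18, limma adjusted p = 0.0167). AT5G10980 rose from 345 ± 9.67 to 386 ± 23.9 RPM (0.16, limma adjusted p = 0.0341). The calls of these 2 smaller rises depended on the settings, with limma adjusted p of 0.124 and 0.165 without the intensity trend. The call of AT4G40030 was also lost without DMSO-1, DMSO-2 or DEX-2 (limma adjusted p 0.0697 to 0.0940), and that of AT5G10980 without any library but DEX-3 (0.0514 to 0.151) and with DESeq2 (adjusted p = 0.0638).

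The balance of H3 RNA differed between the groups. The ratio of summed H3.1 to summed H3.3, both per kilobase, was 1.335, 1.341 and 1.340 in the DMSO libraries and 0.340, 0.330 and 0.330 in the DEX libraries. Per kilobase, H3.1 was above H3.3 in every DMSO library and below it in every DEX library. The mean ratios were 4.02-fold apart, with SDs of 0.00314 and 0.0056 within the groups. In summed RPM, not scaled by exon length, H3.1 was below H3.3 in both groups. The means were 1368 against 1702 RPM with DMSO and 418 against 2116 RPM with DEX. The crossing therefore rested on the scaling by exon length, while the lower ratio with DEX did not. Without the gene of highest level in each class the ratio was 1.49 and 0.412.

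**Figure D3:**
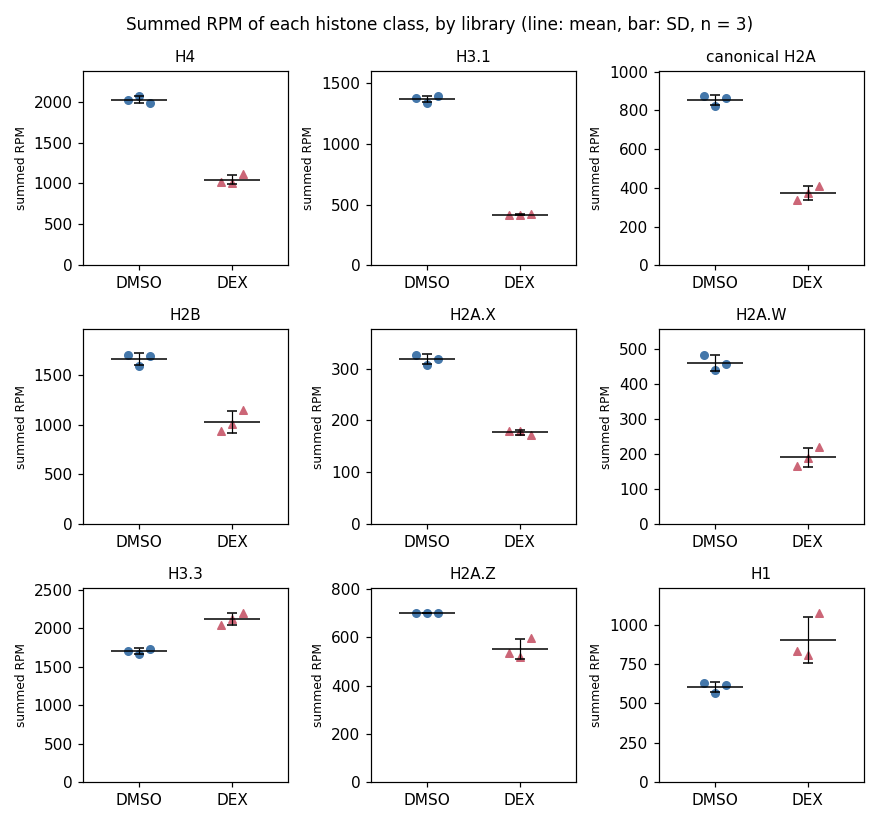
Summed RPM of each histone class in each library (points), with the group mean and SD for 3 DMSO and 3 DEX libraries, each class on its own axis starting at 0. The H3.1 sum is 1368 RPM with DMSO and 418 RPM with DEX, while H3.3 goes from 1702 to 2116 RPM and H1 from 604 to 904 RPM.

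Canonical H2A is the replication-coupled partner of H2B. Its summed level went from 855 ± 25.9 to 373 ± 36.8 RPM, and 3 of the 4 genes fell. HTA10 (AT1G51060) was the highest, with 345.6, 318.0 and 337.9 RPM with DMSO and 108.7, 125.6 and 140.0 RPM with DEX (-1.42, SE 0.080, limma adjusted p = 9.18e-11). HTA13 (AT3G20670) and HTA2 (AT4G27230) fell alongside it, by 1.36 and 1.27 on the log2 scale. RAT5 (AT5G54640, histone H2A 1), known for its need in Agrobacterium transformation of roots, had 82.6, 75.3 and 85.3 RPM with DMSO and 67.9, 73.7 and 73.2 RPM with DEX. Its groups did not overlap, but its difference of -0.18 did not pass (limma adjusted p = 0.0632), although it did without DMSO-2 (0.0454) and without DEX-3 (0.0224). RAT5 made up 8.65 ± 0.340% of canonical H2A per kilobase with DMSO and 17.7 ± 1.17% with DEX. The 4 canonical H2A proteins are 92.4 to 95.4% identical.

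Both H2A.X genes fell. Both encode proteins with the SQEF end that carries the phosphorylated serine, found in none of the other members, and they are 98.6% identical. H2AXA (AT1G08880) had 224.6, 208.8 and 229.5 RPM with DMSO and 136.3, 136.8 and 128.1 RPM with DEX (-0.72, SE 0.0656, limma adjusted p = 5.58e-08). GAMMA-H2AX (AT1G54690) had 102.3, 98.9 and 89.1 RPM with DMSO and 43.4, 42.2 and 43.5 RPM with DEX (-1.15, SE 0.080, limma adjusted p = 1.64e-09). Neither gene overlapped between the groups.

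H2A.W, the heterochromatin variant, had members that moved in opposite directions. The KSPK motif of its tail was in all 3 proteins and in no other member. HTA6 (AT5G59870) had 344.2, 300.0 and 319.6 RPM with DMSO and 88.9, 100.3 and 123.7 RPM with DEX (-1.62, SE 0.0944, limma adjusted p = 1.39e-10). HTA7 (AT5G27670) fell less, from 128 ± 3.38 to 71.2 ± 11.1 RPM (-0.85). HTA12 (AT5G02560), a weak gene, had 7.64, 10.99 and 11.8 RPM with DMSO and 15.8, 15.9 and 12.7 RPM with DEX. It rose (0.52, SE 0.163, limma adjusted p = 0.0120), but the call was lost without the first DMSO library (0.34, limma adjusted p = 0.0813). HTA12 overlaps the H2B gene AT5G02570 on the other strand, which had 0.985 ± 0.245 and 0.890 ± 0.471 RPM. HTA6 gave 74.3 ± 1.31% of H2A.W per kilobase with DMSO and 61.0 ± 1.25% with DEX.

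H2A.Z likewise split. HTA9 (AT1G52740), the highest of the 3 genes, had 302.9, 319.4 and 321.3 RPM with DMSO and 391.5, 383.1 and 456.2 RPM with DEX, a rise of 0.38 (SE 0.0686, limma adjusted p = 1.52e-04). HTA8 (AT2G38810) had 94.9, 90.4 and 91.7 RPM with DMSO and 31.6, 31.5 and 35.6 RPM with DEX, a fall of 1.46 on the log2 scale (SE 0.0828, limma adjusted p = 9.60e-11). HTA11 (AT3G54560) also fell, from 293 ± 7.54 to 108 ± 4.61 RPM (-1.43). None of the 3 overlapped between the groups. The differences of HTA8 and HTA11, -1.46 and -1.43, stand beside a median of -1.32 over canonical H2A, although H2A.Z is classed as a replacement histone. HTA9 went from 49.6 ± 1.43 to 77.7 ± 1.58% of H2A.Z per kilobase, while HTA11 went from 36.6 ± 1.07 to 16.3 ± 1.56% and HTA8 from 13.9 ± 0.393 to 5.94 ± 0.0817%.

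**Figure D4:**
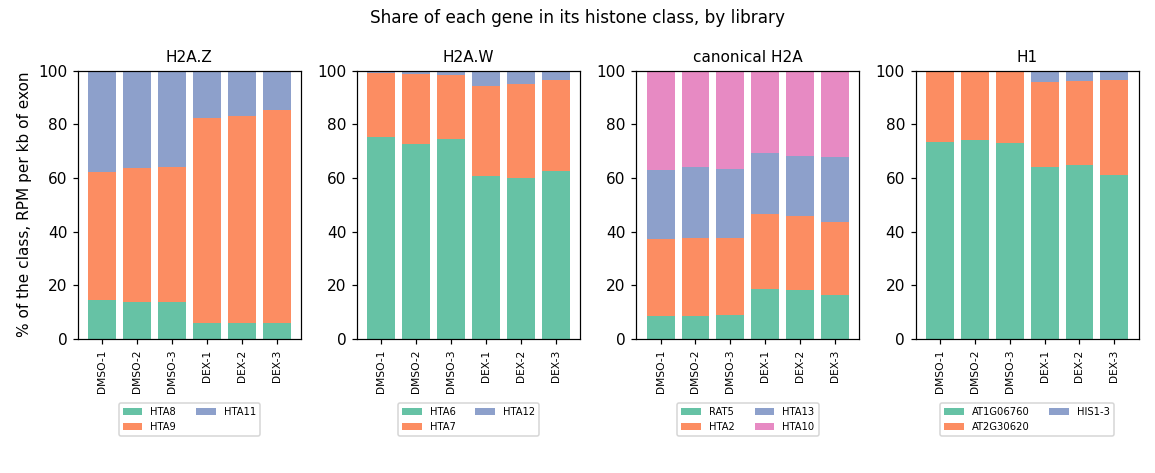
Share of each gene in the summed RPM per kilobase of its class, for H2A.Z, H2A.W, canonical H2A and H1, as stacked bars from 0 to 100% in each of the 6 libraries. HTA9 fills 49.6% of H2A.Z with DMSO and 77.7% with DEX, and the libraries of a group look alike.

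The ratio of canonical H2A to H2A.Z, per kilobase, was 1.48, 1.40 and 1.46 in the DMSO libraries and 0.700, 0.801 and 0.763 in the DEX libraries. The means differed 1.92-fold, and the direction rested on HTA9. Without HTA9 the ratio was 2.87 with DMSO and 3.40 with DEX, so the direction turned, whereas without HTA10 it was 0.919 and 0.517, still lower with DEX (both chosen after seeing the data). Without both genes it went from 1.82 to 2.33.

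H2B fell in 6 of 8 genes, with a summed level of 1664 ± 63.4 RPM with DMSO and 1031 ± 110 RPM with DEX. HTB4 (AT5G59910), the highest, had 662.4, 602.3 and 627.5 RPM with DMSO and 388.1, 403.2 and 503.8 RPM with DEX (-0.55, SE 0.0807, limma adjusted p = 1.53e-05). HTB1 (AT1G07790) had 234.0, 239.3 and 246.4 RPM with DMSO and 98.7, 101.7 and 87.1 RPM with DEX, the largest fall of the class (-1.32, SE 0.0709, limma adjusted p = 4.89e-11). Both genes kept their groups apart, and the third DEX library was the highest of its group for HTB4 and the lowest for HTB1. HTB2 (AT5G22880) fell by 1.12 on the log2 scale, AT2G37470 by 0.98, AT3G53650 by 0.90 and HTB9 (AT3G45980) by 0.56.

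The remaining H2B genes behaved otherwise. AT2G28720 was the only H2B gene that rose, with 8.36, 8.72 and 10.3 RPM with DMSO and 10.7, 15.6 and 14.4 RPM with DEX (0.51, SE 0.159, limma adjusted p = 0.0110). Its call was lost without the second DEX library (0.41, limma adjusted p = 0.0635), and it is a weak gene, at 104 to 225 reads per library. HTB11 (AT3G46030) had 149.3, 131.5 and 141.4 RPM with DMSO and 113.0, 125.7 and 157.4 RPM with DEX, so its groups overlapped and it did not pass (-0.10, 95% interval -0.31 to 0.10, limma adjusted p = 0.373). Without the third DEX library it fell by 0.24 on the log2 scale (limma adjusted p = 0.00147). All 8 H2B genes encode distinct proteins, 80.7 to 97.3% identical.

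H1, the linker histone, rose in all 3 genes, and the summed level went from 604 ± 31.1 to 904 ± 146 RPM. AT1G06760 was the highest, with 412.7, 380.0 and 404.4 RPM with DMSO and 471.4, 462.6 and 568.8 RPM with DEX (0.32, SE 0.0734, limma adjusted p = 0.00121). AT2G30620 rose further, from 203 ± 14.0 to 377 ± 85.2 RPM (0.87). The third DEX library held the highest value of both, and its H1 sum of 1072 RPM stood above the 832 and 808 RPM of the other DEX libraries. HIS1-3 had 2.98, 2.42 and 2.53 RPM with DMSO and 26.1, 23.6 and 27.8 RPM with DEX. The groups were far apart and the DEX libraries close together, with a mean 9.78-fold higher and a difference of 2.88 (SE 0.151, limma adjusted p = 3.44e-11), the largest of any histone gene in either direction. Per kilobase HIS1-3 was still a small part of H1, 0.582 ± 0.0451% with DMSO and 3.93 ± 0.341% with DEX.

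Other features of the genes were set beside these differences as descriptions. Of 21 members with no intron in the coding part 18 fell, 1 rose and 2 did not pass (median -0.98), and of 18 with an intron 9 fell, 8 rose and 1 did not pass (median -0.45). All H4, H3.1 and H2B genes lacked such an intron, so this feature and the class cannot be told apart. The 27 members whose 50-base stretches were all unique had 17 falls and 9 rises (median -0.72), and the 12 that shared some had 10 falls and no rise (median -1.19). Those 12 were all H4, H3.1, canonical H2A or H2B genes, so this feature was not independent of the class. Another annotated gene overlapped 8 members, of which 3 fell and 4 rose, and since the use of strand is not given, reads of such partners cannot be told apart. The 4 that rose were HTA9, AT1G06760, AT2G30620 and HTA12. This limit thus holds for the rise within H2A.Z and for most of the H1 sum. HTA13, GAMMA-H2AX and HTB9 fell, and AT3G27360 did not pass. Among the 31 without an overlap 24 fell and 5 rose.

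Promoter motifs were counted in the 250 bases before each start, on both strands. The octamer CGCGGATC was in 10 of the 39 histone promoters (25.6%), against 27 of 17369 promoters of listed genes (0.155%), so 10 of those 27 were histone genes. It was in 3 of 5 H3.1, 2 of 8 H4, 2 of 4 canonical H2A, 1 of 3 H3.3, 1 of 3 H2A.W and 1 of 3 H1 promoters. Members with it had 8 falls and 2 rises (median -1.39), those rises being AT4G40040 and AT1G06760. The 29 without it had 19 falls, 7 rises and 3 that did not pass (median -0.72), and the 17 other genes with it had 4 falls and 9 rises (median 0.24). Of all genes 28.1% fell and 29.6% rose. AT4G40042, among those 17, reaches into the AT4G40040 window, so the same site may be counted for both. The AACGG core was in 48.7% of histone promoters and 22.3% of listed genes. Of letters often bound by E2F factors, TTTGGCGC was in 2 histone promoters, those of the H4 genes AT3G46320 and AT3G45930, 237 bases before the start in both, against 0.409% of listed genes, and TTTCCCGC in none, against 0.656%. The windows of these 2 H4 genes are nearly identical in sequence, so their matches are not independent. A match is a run of letters and shows no binding.

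Genes that work with the histones were counted from fixed lists. Of 10 further histone genes 3 were in the table: HTR12 (AT1G01370), the centromeric H3, fell from 31.8 ± 0.992 to 15.2 ± 2.55 RPM (-1.03), the H2B gene AT3G09480 fell from 14.5 ± 3.47 to 6.83 ± 3.25 RPM (-1.03) though its groups overlapped, and AT5G02570 did not pass. Of 15 histone chaperone genes 5 fell and 1 rose (median 0.08), where 28.1% of all genes fell and 29.6% rose. Falls were thus about as frequent as among all genes, and rises were fewer. The falls included FAS1 (AT1G65470) and MSI1 (AT5G58230), subunits of the CAF-1 complex that loads H3.1 with H4 at replication, which fell by 1.08 and 0.67 on the log2 scale, and TSK (AT3G18730), which reads newly made H3.1, by 0.98. TSK had 2.27 to 3.16 RPM with DMSO and 0.622 to 0.980 RPM with DEX, so it is in the table only through its DMSO values. HIRA (AT3G44530), of the complex that loads H3.3, also fell, by 0.44, from 21.2 ± 1.64 to 15.3 ± 1.54 RPM, while H3.3 RNA rose. The fifth, ASF1B (AT5G38110), fell by 0.37, and HMG (AT3G28730), the SSRP1 subunit of the FACT complex, rose by 0.26. The call of ASF1B was lost without DMSO-1 (limma adjusted p = 0.0928) and without DEX-2 (0.0569), and TSK falls below the minimum for testing when a DMSO library is left out. Without DMSO-1, 3 falls were left in this list.

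For H2A.Z exchange, none of 5 genes fell (against 28.1% of all genes) and 2 rose (against 29.6%). The 2 were INO80 (AT3G57300, 0.49) and SEF (AT5G37055, 0.46), a subunit of the SWR1 complex. ARP6 (AT3G33520) and PIE1 (AT3G12810), further subunits of that complex, and AT2G47210 did not pass. Their differences were 0.02, -0.14 and -0.07. The groups of INO80 overlapped. INO80 lost its call without DMSO-3 (limma adjusted p = 0.0549), and SEF without DMSO-2 (0.124) and without DEX-1 (0.0513). All 3 listed chromatin genes fell: ATXR6 (AT5G24330) and ATXR5 (AT5G09790), methyltransferases that act on H3.1 and poorly on H3.3, had differences of -2.01 and -0.64, and CHR1 (AT5G66750, DDM1), a remodeler of heterochromatin that acts with H2A.W, had -1.495.

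DNA replication genes fell in 12 of 13 cases, with a median of -1.70, where 28.1% of all genes fell. PCNA1 (AT1G07370), the sliding clamp of DNA polymerase, went from 146 ± 10.2 to 27.0 ± 4.94 RPM (-2.41). TSO2 (AT3G27060), of ribonucleotide reductase, went from 273 ± 10.3 to 62.9 ± 7.29 RPM (-2.11), and MCM4 (AT2G16440), of the replicative helicase, fell by 1.99. RNR2A (AT3G23580), the exception, had 21.5 ± 1.55 and 21.7 ± 1.84 RPM. Mitotic genes fell in 6 of 7 cases with smaller differences, the median being -0.45. CDKB1;1 (AT3G54180), a plant kinase of the G2 to M step, fell by 0.87, and the B-type cyclin CYCB1;1 (AT4G37490) by 0.61. The exception, CDKB1;2 (AT2G38620), was near the lower limit of the table, at 1.59 ± 0.609 and 1.36 ± 0.848 RPM. Beside these medians, those of the replication-coupled histones were -1.76 for H3.1, -1.32 for canonical H2A, -0.93 for H4 and -0.73 for H2B.

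**Figure D5:**
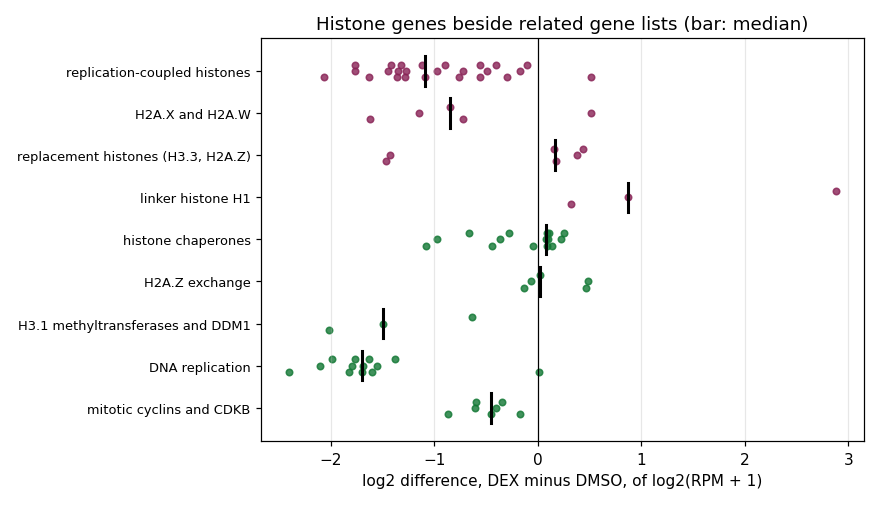
Difference of each gene (DEX minus DMSO, log2(RPM + 1)) in sets of histones and in the related lists, 1 point per gene with the median of each set as a bar. Replication-coupled histones (median -1.09) and DNA replication genes (median -1.70) lie mostly below 0, and chaperones (median 0.08) lie around 0.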

How the data were processed

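RNA-seq of 6 inflorescence libraries, 3 DMSO and 3 DEX, was grouped by the labels. The values deposited by the authors are reads per 1000000 reads (RPM) over 17675 genes, each listed gene having at least 1 RPM in 3 or more libraries, and TopHat and HTSeq are named in the submitters' processing notes. Not given in the sources used here are their versions, the genome build and whether counting used strand. All values (100%) came out as whole multiples of 1 read within 0.01 reads, giving 10703769 to 14469527 reads per library.

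From the deposited RPM, log2(RPM + 1) was compared between the groups by limma 3.58.1 (R 4.3.3, intensity trend). Two-sided p-values were adjusted by Benjamini-Hochberg for the 17675 genes together, and 0.05 was the threshold. The pseudocount understates changes of low genes. The planned filter of 1 RPM in 3 libraries removed no gene. The edgeR 4.0.16 quasi-likelihood test on the recovered reads called 10146 genes, against 10204 with limma, and DESeq2 1.42.0 was run too. Other alternatives were pseudocounts of 0.1 and 5, a minimum of 5 RPM, TMM and median-of-ratios scaling, no intensity trend, robust moderation, the replicate number as a block, each library left out, and sums without the highest member of each class. In 1 simulation of DEX against DMSO over 17516 genes, limma called 76.1% of 67 genes changed by 1.5-fold and 100% of those changed by 2-fold or 4-fold, with 11 unchanged genes called. The simulation changed few genes, none of them low in reads, gave every gene the same dispersion and held no outlying library. Its rates may therefore not carry over to these data.

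Names, exon lengths, introns, coding sequences and promoters came from the RefSeq annotation of TAIR10.1, matched by gene identifier for all 39 members and 17646 of the listed genes. Levels within a class were summed per kilobase of merged exons. Values in every library are printed for the member of highest mean and of largest difference in each class, for members that passed against their class median and for those that did not pass. The last were added after their values were seen, as were RNR2A, CDKB1;2, ARP6, PIE1 and AT2G47210. Of each related list, up to 4 called genes of largest difference are named. ASF1B, HMG, AT5G02570 and CAB3 were named to complete a count, and CDKB2;2 for the loss of its call. The members, classes, lists and motifs were chosen with earlier results of these data known, so counts and medians are descriptions set beside all genes. Nothing says that the libraries came from separate plants, so p-values measure the spread between these libraries, which may be technical. Pairs of libraries within a group differed by more than sampling noise, and each was counted separately.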

Additional observations from a re-analysis of the deposited data

How the results depend on the processing

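Over 17 alternatives, 32 of the 39 histone genes kept their direction and their side of the threshold in every one. The number of members past the threshold stayed between 33 and 39, against 36 in the main test, with 35 under DESeq2 and 34 without the intensity trend. Leaving out 1 library gave 33 to 39 members, the highest being without DEX-3, where 30 fell. Values of the histone genes that changed their call are given in the report. HTB11, which did not pass, had differences of -0.24 (without DEX-3) to 0.0009 (without DEX-1, limma adjusted p = 0.995) with 1 library left out, against -0.10, and the cause was not tested. The leaf marker RBCS1A lost its call without the intensity trend (limma adjusted p = 0.0716). CDKB2;2, among the mitotic genes, lost its call without DMSO-1 (limma adjusted p = 0.0718) and without DMSO-2 (0.0541). With a pseudocount of 5 RPM the medians of H2A.X and H2A.Z were -0.89 and -1.36, against -0.93 and -1.43, a shrinkage that a larger pseudocount brings by construction. Leaving out 1 library gave medians of -1.78 to -1.72 for H3.1, -1.02 to -0.88 for H4, -1.40 to -1.24 for canonical H2A, -0.86 to -0.59 for H2B, -0.95 to -0.91 for H2A.X, -0.96 to -0.74 for H2A.W, -1.45 to -1.41 for H2A.Z, 0.15 to 0.22 for H3.3 and 0.70 to 0.98 for H1. Without the highest member of each class, the share of reads in the remaining histones was 0.562% with DMSO and 0.349% with DEX, the ratio of H3.1 to H3.3 was 1.49 and 0.412, and that of canonical H2A to H2A.Z was 1.82 and 2.33. That last ratio turned its direction. In alternatives chosen after seeing the data it was 2.87 and 3.40 without HTA9 alone, also turned, and 0.919 and 0.517 without HTA10 alone, not turned.

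Libraries of the same number showed correlations of deviations from the group means of -0.047, 0.062 and 0.029. Those of unlike number ran from -0.105 to 0.075. Libraries of the same number thus did not stand out, which does not exclude a pairing. With the replicate block 36 histone genes were called, 27 lower and 9 higher, and 10255 genes in all, against 10204.

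The small differences of AT5G10980, RAT5 and HTB11 (0.16, -0.18 and -0.10) crossed the threshold in 1 direction or the other when 1 of the 3 libraries of a group was left out. Behind the lowest level, that of HIS1-3 with DMSO, were 32 to 37 reads per library, and the effect of depth on the calls was not tested.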
